A study of Mus musculus with 8 samples.

Results

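The genes described here build the contractile unit of skeletal muscle, the sarcomere, and the machinery by which single myoblasts fuse into a fibre. They were taken as a list of 38 symbols that covers the thick filament, the thin filament, the Z disc, the calcium store with its energy supply, and the fusion and fetal acetylcholine receptor genes. The deposited table of 24328 gene symbols held 37 of them, because Mymk and Tmem8c are 2 names of 1 gene, myomaker, which the table lists as Tmem8c. Of these 37 members, 28 passed a level filter (1 FPKM or more in 2 or more libraries) and were tested among 12515 genes. FPKM correct for transcript length and for the size of the library, so levels of different genes can be set side by side.

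Satellite cells are the stem cells of skeletal muscle. They were sorted as Vcam+ cells that lacked CD31, CD45 and Sca-1, and their RNA was sequenced in 4 groups of 2 libraries. All mice were C57BL/6 and 2 months old. PFA-perfused cells came from Pax7-nGFP mice whose tissue was fixed by perfusion with paraformaldehyde before the muscle was taken apart, and PBS-perfused cells from Pax7-nGFP mice perfused with buffer. The other groups came from wild type mice that were not perfused, and of these the unperfused cells were taken from uninjured muscle and the injury-activated cells 2.5 days after injury. RNA of the fixed cells was extracted with another kit than RNA of the unfixed cells, so fixation and kit cannot be told apart, and against the unperfused group neither can the genotype. The design text names 2 sequencers, and which library ran on which is not given in the sources used here. The part of the sequencer in any group difference was not tested. Each p-value reflects the spread between libraries of the same group, pooled over the 4 groups in a joint fit. Whether a group's libraries stem from different mice is not in the labels, so this spread may be technical.

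A muscle fibre contracts when myosin of the thick filament pulls on actin of the thin filament, after calcium released from the sarcoplasmic reticulum has bound troponin and moved tropomyosin aside. Satellite cells at rest carry the transcription factor Pax7 and make little of this apparatus. After injury they divide, become myoblasts, switch on Myog (myogenin, a transcription factor of muscle differentiation), and then express sarcomere genes, often in embryonic forms first, together with the membrane protein myomaker that makes fusion possible.

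Summed over the 37 members, the level was 627 to 706 FPKM in PFA-perfused, 450 to 586 in PBS-perfused, 273 to 300 in unperfused and 1493 to 1565 in injury-activated libraries. The group mean was highest in injury-activated cells for 22 of the 37 members, in PBS-perfused cells for 7, in PFA-perfused cells for 5 and in unperfused cells for 3. The myosin heavy chains, the motors of the thick filament, were near the floor in all groups. Myh1, Myh2, Myh3, Myh4, Myh7 and Myh8 did not reach the level needed for a test, and neither did the M-band protein Myom1, the alpha-actinin Actn2 and the Z-disc protein Ldb3. Among these 9, the highest single values were 1.45 FPKM for Ldb3 in PBS-perfused replicate 2, 1.05 for Actn2 and 1.01 for Myh1 in injury-activated replicate 1, and Myom1 was lowest after injury, at 0.118 and 0.00233 FPKM. Embryonic myosin Myh3 stood at 0.104 and 0.417 FPKM in PFA-perfused libraries, at 0.00787 and 0.108 FPKM after PBS perfusion, at 0.0131 and 0.00492 FPKM in unperfused cells, and at 0.93 and 0.627 FPKM after injury. Its libraries after injury were the highest, but below 1 FPKM. Most sarcomere parts other than the heavy chains were thus measured in cells that held very little mRNA of the motor protein itself. The myosin heavy chain genes also share sequence, with up to 11.1% of the 101-base windows of a member's longest transcript (Myh7, shared with Myh6) found in another gene, so reads could be split between them.

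**Figure D1:**
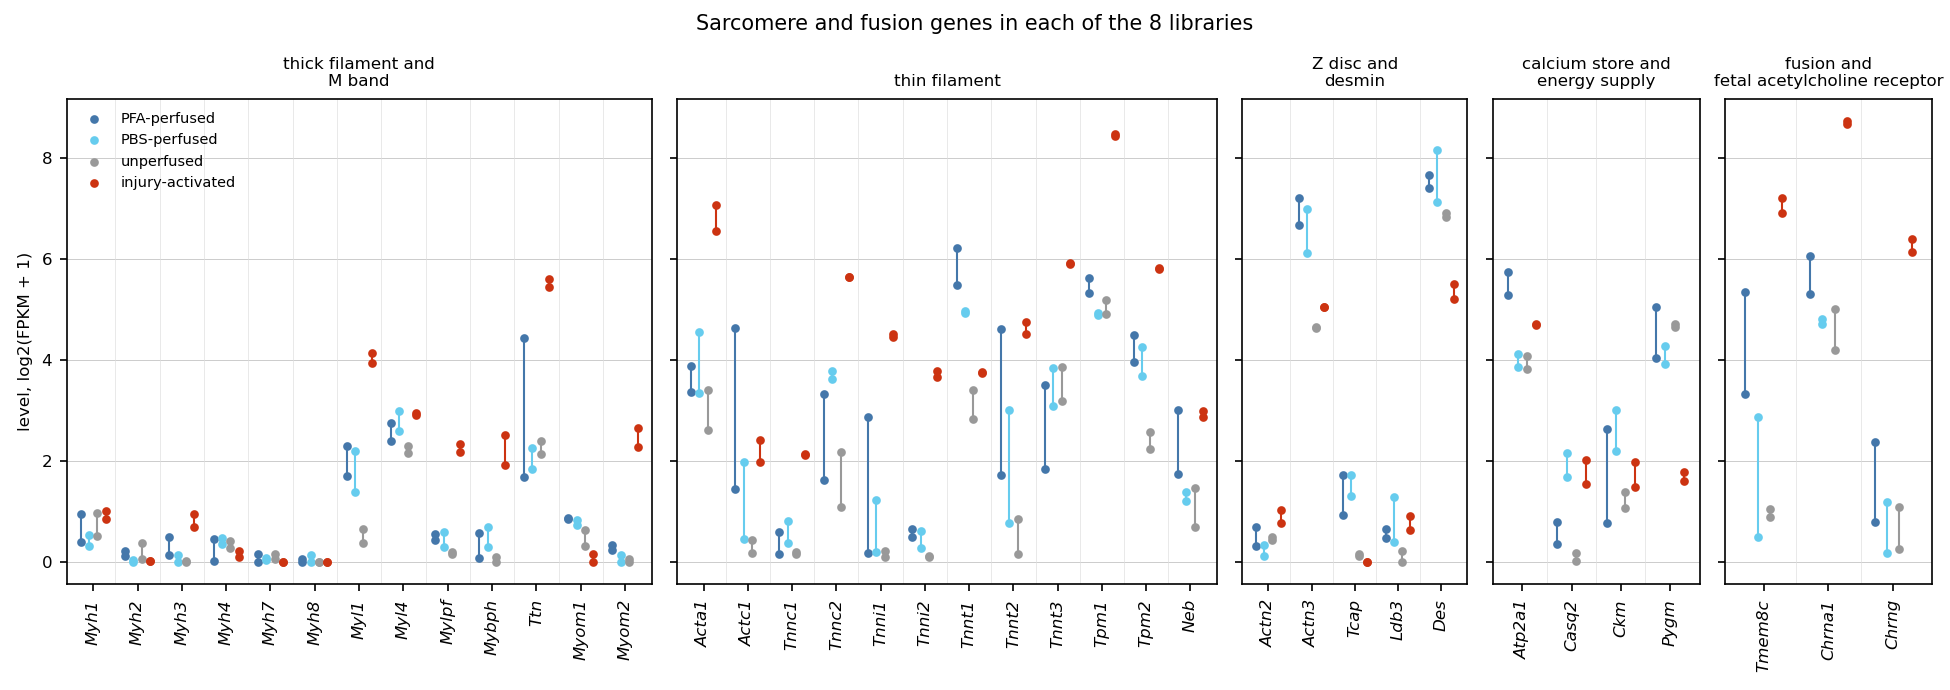
Level of each of the 37 members, log2(FPKM + 1), in the 8 libraries, in panels by role. Each point is a library and each line joins the 2 libraries of a group. The injury-activated libraries stand highest for most thin filament and fusion genes, while Des, Actn3, Pygm and Tnnt1 are higher in other groups.

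The first comparison asked how the members change when satellite cells are activated by injury, in injury-activated against unperfused cells, both from wild type mice without perfusion. Of the 28 tested members 21 rose and 2 fell at an adjusted p under 0.05 (limma), while 40.8% of all tested genes rose and 29.3% fell. The median change of the tested members was 2.28 on the log2(FPKM + 1) scale, beside 0.17 over all tested genes. Judged by the libraries alone, all injury-activated values lay above the unperfused ones for 25 tested members and below them for 3, beside 49.3% and 39.8% of all genes. A member high in only 1 group passed the level filter through that group, so the tested members are not a neutral sample of the list. Of 8 tested members listed as typical of developing muscle, 7 rose, with a median change of 4.11. This list takes in the fusion and receptor genes Tmem8c, Chrna1 and Chrng, whose own median was 5.59. Its sarcomere genes were Tnni1 (4.31), Tnnt2 (4.13), Mybph (2.18), Actc1 (1.88, not called) and Myl4 (0.70). Of 11 tested members listed as typical of adult fibres, such as Acta1, Tnni2 and Pygm, 7 rose and 1 fell, with a median of 2.08. The medians of the 2 lists therefore do not compare sarcomere forms alone. The largest rise was that of Tmem8c, and the 2 falls were those of Des and Pygm.

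All 3 fusion and receptor genes rose, beside 40.8% of all tested genes. Tmem8c and Chrng had the largest changes of the 28 members on this scale. Tmem8c encodes myomaker, the myoblast membrane protein needed for fusion. It was at 1.09 and 0.857 FPKM in the unperfused libraries and at 147 and 120 FPKM in the injury-activated libraries, a log2 change of 6.09 ± 0.76 (SE, limma adjusted p = 8.736e-05). Chrna1 encodes the alpha subunit of the muscle acetylcholine receptor, and Chrng its fetal gamma subunit. Chrna1 had 31.5 and 17.6 FPKM before and 409 and 426 FPKM after injury, and it rose by 4.09 ± 0.33 (adjusted p = 6.475e-06). Chrng had 1.15 and 0.203 FPKM before and 83.5 and 70.0 FPKM after injury, and it rose by 5.59 ± 0.52 (adjusted p = 1.437e-05). No injury-activated library overlapped an unperfused one for these 3 genes. At a mean of 418 FPKM Chrna1 was the most abundant member in injury-activated cells, ahead of Tpm1 at 351 FPKM.

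In the thin filament 10 of 12 tested members rose, beside 40.8% of all tested genes. Of the 10, Tnnc1 and Tnni2 passed the level filter only through the injury-activated libraries, so their rise was favoured in advance. Acta1 is the actin of adult skeletal muscle, and Actc1 the actin of heart and of immature skeletal muscle. Acta1 had 9.60 and 5.18 FPKM in the unperfused libraries and 133 and 93.9 FPKM in the injury-activated libraries, a rise of 3.80 ± 0.42 (adjusted p = 3.956e-05). Actc1 had 0.145 and 0.366 FPKM before and 4.35 and 2.97 FPKM after injury, which gave a log2 difference of 1.88 ± 0.86 that did not pass (adjusted p = 0.07624), although the libraries did not overlap. The standard error of Actc1 is shared over all groups and takes in its wide spread between the PFA-perfused libraries, described further on. Tpm1 and Tpm2 encode tropomyosins, which lie along actin, and both rose, whereas Tpm3, a tropomyosin outside the list, fell by 1.72 from 454 and 653 to 174 and 156 FPKM (adjusted p = 0.001167). Tpm1 went from 29.2 and 35.5 to 345 and 358 FPKM, a rise of 3.41 ± 0.22 (adjusted p = 2.074e-06). Tpm2 went from 5.0 and 3.72 to 55.5 and 54.7 FPKM, a rise of 3.4 ± 0.27 (adjusted p = 6.529e-06).

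Troponin is the calcium switch of the thin filament, with a calcium-binding, an inhibitory and a tropomyosin-binding subunit. Its inhibitory subunits Tnni1 (slow fibres) and Tnni2 (fast fibres) were close to 0 before injury. Tnni1 had 0.0771 and 0.173 FPKM in unperfused and 21.8 and 20.9 FPKM in injury-activated libraries, and it rose by 4.31 ± 0.70 (adjusted p = 0.0004305). Tnni2 had 0.0918 and 0.0802 FPKM before and 12.9 and 11.8 FPKM after injury, and it rose by 3.62 ± 0.17 (adjusted p = 6.352e-07). In perfused cells Tnni1 was at up to 6.31 FPKM and Tnni2 at no more than 0.59 FPKM. Nebulin, Neb, which spans the thin filament, rose from 1.79 and 0.634 to 6.33 and 6.95 FPKM, by 1.84. The calcium-binding subunit of slow fibres and heart, Tnnc1, rose from 0.13 and 0.16 to 3.36 and 3.4 FPKM, by 1.94.

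The calcium-binding subunit of fast fibres, Tnnc2, had 3.56 and 1.15 FPKM before and 49.0 and 49.2 FPKM after injury, and its value rose by 4.0 ± 0.51 (adjusted p = 9.771e-05). In the GENCODE M21 annotation 74.0% of the exon bases of Tnnc2 lie opposite exons of Ube2c, a ubiquitin-conjugating enzyme of mitosis on the other strand. Ube2c itself had 1.14 and 0.56 FPKM before and 78.0 and 85.3 FPKM after injury, a rise of 5.50. Whether strand was used in the quantification is not given in the sources used here, and without it reads of these 2 genes cannot be told apart. In PBS-perfused cells, by contrast, Tnnc2 stood at 12.9 and 11.4 FPKM where Ube2c had only 1.81 and 1.60 FPKM. The plot of both genes shows that their order differs between the groups.

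**Figure D2:**
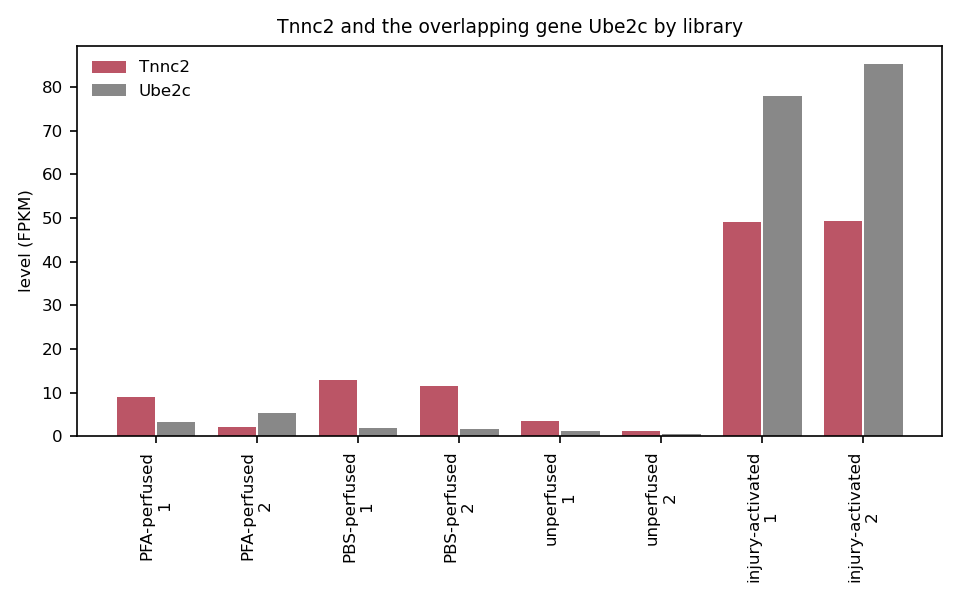
Level in FPKM of Tnnc2 and of Ube2c, which overlaps it on the other strand, in each library; bars are single libraries. Ube2c is above Tnnc2 in both injury-activated libraries (78.0 and 85.3 against 49.0 and 49.2 FPKM) and below it in both PBS-perfused libraries.

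All 6 tested members of the 13 listed for the thick filament and M band rose, beside 40.8% of all tested genes. Of these, Mylpf, Mybph and Myom2 passed the level filter only through the injury-activated libraries, so their rise was favoured in advance. Titin, Ttn, is the giant spring that runs from the Z disc to the M band. It had 4.31 and 3.44 FPKM in unperfused and 42.8 and 48.1 FPKM in injury-activated libraries, and it rose by 3.25 ± 0.68 (adjusted p = 0.002112). Myl1, the alkali light chain of fast myosin, had 0.581 and 0.308 FPKM before and 16.7 and 14.5 FPKM after injury, and it rose by 3.53 ± 0.30 (adjusted p = 9.29e-06). A pseudogene, Mylf-ps, shares 9.16% of the 101-base windows of Myl1. The regulatory light chain Mylpf rose by 2.08 to a mean of 3.83 FPKM, the myosin-binding protein Mybph by 2.18 to 3.79 FPKM, and the M-band protein Myom2 by 2.44 to 4.6 FPKM. Of the exon bases of Mybph 49.9% overlap Adora1, an adenosine receptor gene, which fell by 1.04 in the same comparison. The embryonic and atrial light chain Myl4 went only from 3.49 and 3.95 to 6.81 and 6.51 FPKM, a rise of 0.70 ± 0.22 (adjusted p = 0.01657). That call was lost after scaling between libraries (0.54) and without unperfused replicate 1 (0.63) or either injury-activated library (0.67 and 0.73).

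None of the 3 tested members of the Z disc and desmin group was called higher, and neither were the energy genes Ckm and Pygm. Actn2 and Ldb3, too low for a test, had higher values after injury. Actn2 had 0.353 and 0.413 FPKM before and 1.05 and 0.709 FPKM after injury. For Ldb3 the values were 0.165 and 0 FPKM before and 0.894 and 0.552 FPKM after injury. Des encodes desmin, the intermediate filament that ties Z discs together and is already present in satellite cells. It had 120 and 114 FPKM in unperfused and 44.5 and 36.3 FPKM in injury-activated libraries, and it fell by 1.52 ± 0.33 (adjusted p = 0.002697). Actn3, the alpha-actinin of fast fibres, had 23.8 and 24.4 FPKM before and 32.3 and 32.2 FPKM after injury, a log2 difference of 0.40 ± 0.31 (adjusted p = 0.265). The titin cap Tcap was at 0.117 and 0.0971 FPKM before and is listed at 0 in both injury-activated libraries. Pygm, the glycogen phosphorylase of muscle, had 25.3 and 24.4 FPKM before and 2.45 and 2.07 FPKM after injury, and it fell by 2.99 ± 0.31 (adjusted p = 2.876e-05). The creatine kinase Ckm had 1.63 and 1.10 FPKM before and 2.97 and 1.81 FPKM after injury, a difference of 0.51 that did not pass (adjusted p = 0.4128). Casq2, a calcium buffer of the reticulum, rose by 1.69 to a mean of 2.52 FPKM.

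Atp2a1 encodes the calcium pump SERCA1 of the reticulum. It had 15.9 and 13.2 FPKM in unperfused and 25.4 and 25.1 FPKM in injury-activated libraries, a rise of 0.76 ± 0.23 (adjusted p = 0.01412). The call was lost without unperfused replicate 2 (0.64) and without either injury-activated library (0.75 and 0.77). Rabep2, which overlaps 21.9% of the exon bases of Atp2a1, had a difference of 0.05 in this comparison and was not called. The other 19 rises and both falls kept their call under every alternative setting in which the gene was tested. Scaling the libraries by a trimmed mean of ratios gave 20 rises and 2 falls, beside 39.1% and 33.9% of all genes, as the plot of changes after injury shows.

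**Figure D3:**
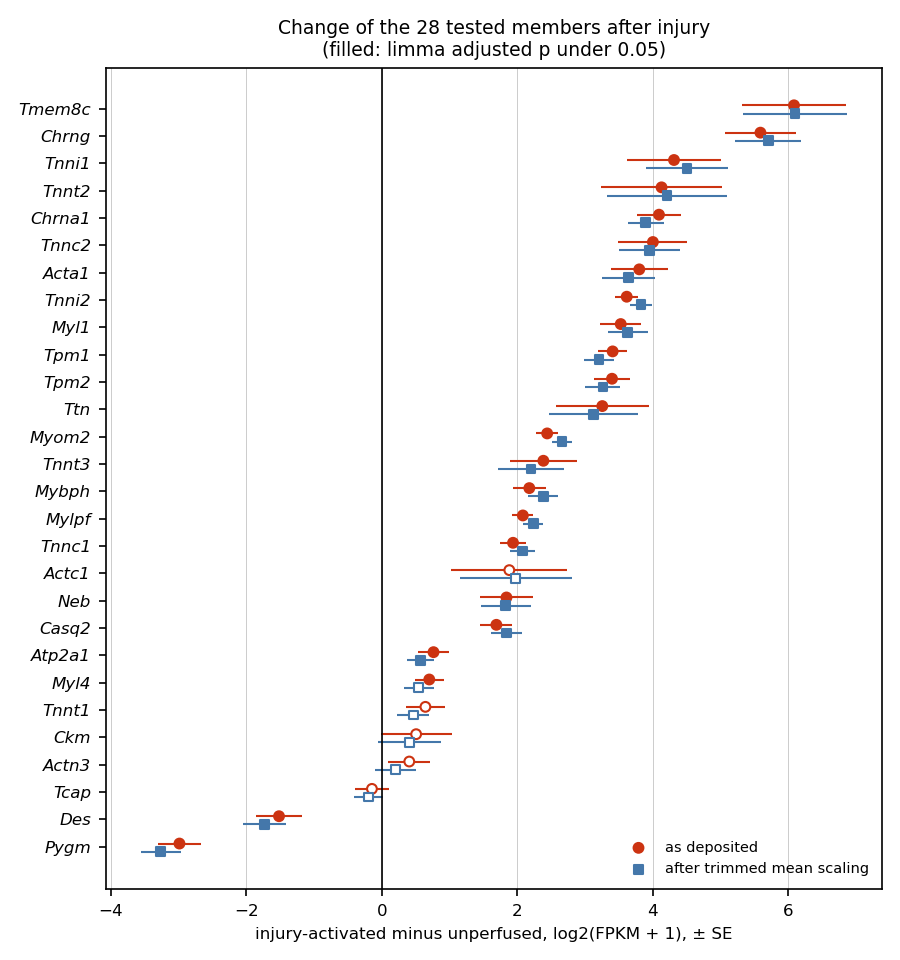
Difference between injury-activated and unperfused cells on the log2(FPKM + 1) scale with its standard error, for the 28 tested members, with the values as deposited (circles) and after trimmed mean scaling (squares). Filled symbols passed an adjusted p of 0.05; 21 members lie above 0 and 2 below 0 among the filled circles, and the scaled values lie close beside them.

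The members' promoters, whatever their change, were read for the E-box, the site bound by myogenic factors such as Myod1 and Myog. RefSeq windows on GRCm38.p6 were at hand for 30 of the 38 symbols, in 34 windows that end just before the start site and hold 250 bases. No window was at hand for Tnni2, Tnnt3, Actn3, Tmem8c, Mymk, Myom2, Neb and Tcap. The E-box CANNTG, which reads the same on both strands, was found in 28 member windows (82.4%) and in 66.2% of all 32851 windows. Its form CAGCTG was found in 15 member windows (44.1%) and in 13% of all windows, while the form CACCTG, searched on both strands, was found in 7 (20.6%) and in 17.2%. Both forms are also counted under CANNTG. The MEF2 site was present in 5 member windows (14.7%) and in 2.92% of all, and the CArG box, which binds serum response factor, in 6 (17.6%) and in 1.47%, again on both strands. Of 16 members that rose after injury and had a window, 10 held CAGCTG, 2 the MEF2 site and 1 the CArG box, and both members that fell held CAGCTG. Of 9 untested members 1 held CAGCTG, 3 the MEF2 site and 3 the CArG box. These letters describe the sequence only. Shown are the 150 bases before the start of 4 genes that rose and were chosen because they hold an E-box there, of Tpm1, which rose and holds none there, and of the 2 genes that fell, each on the gene's own strand with E-boxes in capitals.
Chrna1, chr2:73580339-73580488, minus strand: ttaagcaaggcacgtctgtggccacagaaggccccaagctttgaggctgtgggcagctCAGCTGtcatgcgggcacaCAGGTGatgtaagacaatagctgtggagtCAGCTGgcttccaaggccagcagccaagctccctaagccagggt
Chrng, chr1:87205661-87205810, plus strand: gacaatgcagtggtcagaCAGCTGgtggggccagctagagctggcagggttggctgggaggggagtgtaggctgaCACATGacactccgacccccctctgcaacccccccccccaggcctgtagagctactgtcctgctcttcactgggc
Tnni1, chr1:135799271-135799420, plus strand: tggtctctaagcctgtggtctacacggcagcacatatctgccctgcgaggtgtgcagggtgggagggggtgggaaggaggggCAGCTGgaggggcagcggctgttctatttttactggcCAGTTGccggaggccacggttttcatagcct
Mylpf, chr7:127211458-127211607, plus strand: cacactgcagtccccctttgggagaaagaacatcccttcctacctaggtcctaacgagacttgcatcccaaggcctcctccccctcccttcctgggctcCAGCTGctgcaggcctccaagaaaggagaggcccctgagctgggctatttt
Tpm1, chr9:67049214-67049363, minus strand: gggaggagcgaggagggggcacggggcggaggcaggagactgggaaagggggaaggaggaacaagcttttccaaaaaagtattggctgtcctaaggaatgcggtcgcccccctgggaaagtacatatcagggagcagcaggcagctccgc
Des, chr1:75360142-75360291, plus strand: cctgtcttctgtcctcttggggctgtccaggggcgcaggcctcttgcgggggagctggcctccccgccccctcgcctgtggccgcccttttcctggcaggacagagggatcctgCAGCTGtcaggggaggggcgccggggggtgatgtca
Pygm, chr19:6384258-6384407, plus strand: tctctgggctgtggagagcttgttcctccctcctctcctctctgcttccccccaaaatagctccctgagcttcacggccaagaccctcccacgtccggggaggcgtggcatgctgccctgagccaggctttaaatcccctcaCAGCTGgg
The first base of the E-boxes lies 92, 73 and 44 bases before the start in Chrna1, 132 and 75 in Chrng, 68 and 31 in Tnni1, 51 in Mylpf, 36 in Des and 8 in Pygm. Tnni1 has another RefSeq start, not shown, and the 150 bases before it (chr1:135799361-135799510) hold 1 E-box, at 121 bases. Counted from that start, CAGCTG lies at 158 bases, outside this stretch.

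Troponin T, the subunit that holds the complex to tropomyosin, is made from 3 genes, Tnnt1 in slow fibres, Tnnt2 in heart and embryonic muscle and Tnnt3 in fast fibres. Their balance differed between the groups. Tnnt1 had 74.1 and 43.7 FPKM in PFA-perfused, 29.7 and 30.3 in PBS-perfused, 9.61 and 6.14 in unperfused and 12.5 and 12.7 in injury-activated libraries. Tnnt2 had 2.32 and 23.5 FPKM, 0.714 and 7.08, 0.122 and 0.815, and 26.0 and 22.1, the groups being named in that order. Tnnt3 had 10.4 and 2.59 FPKM, 7.56 and 13.3, 8.21 and 13.5, and 60.2 and 58.6. In the values as deposited Tnnt1 was thus highest in fixed cells, and Tnnt3 after injury. After trimmed mean scaling Tnnt1 was not called between PBS-perfused and PFA-perfused cells (-0.30, limma adjusted p = 0.3083).

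Between unperfused and injury-activated cells Tnnt2 rose by 4.13 ± 0.89 (adjusted p = 0.002535) and Tnnt3 by 2.38 ± 0.49 (adjusted p = 0.001875), while Tnnt1 differed by 0.64 ± 0.29 and did not pass (adjusted p = 0.07125). As a share of the summed FPKM of the 3 genes, Tnnt1 made up 85.4% and 62.6% in PFA-perfused libraries, 78.2% and 59.8% after PBS perfusion, 53.6% and 30.0% in unperfused cells and 12.7% and 13.6% after injury. The share of Tnnt2 was 26.4% and 23.7% after injury and at most 3.98% in unperfused libraries. A share depends on no scaling between libraries, because it compares genes within 1 library.

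**Figure D4:**
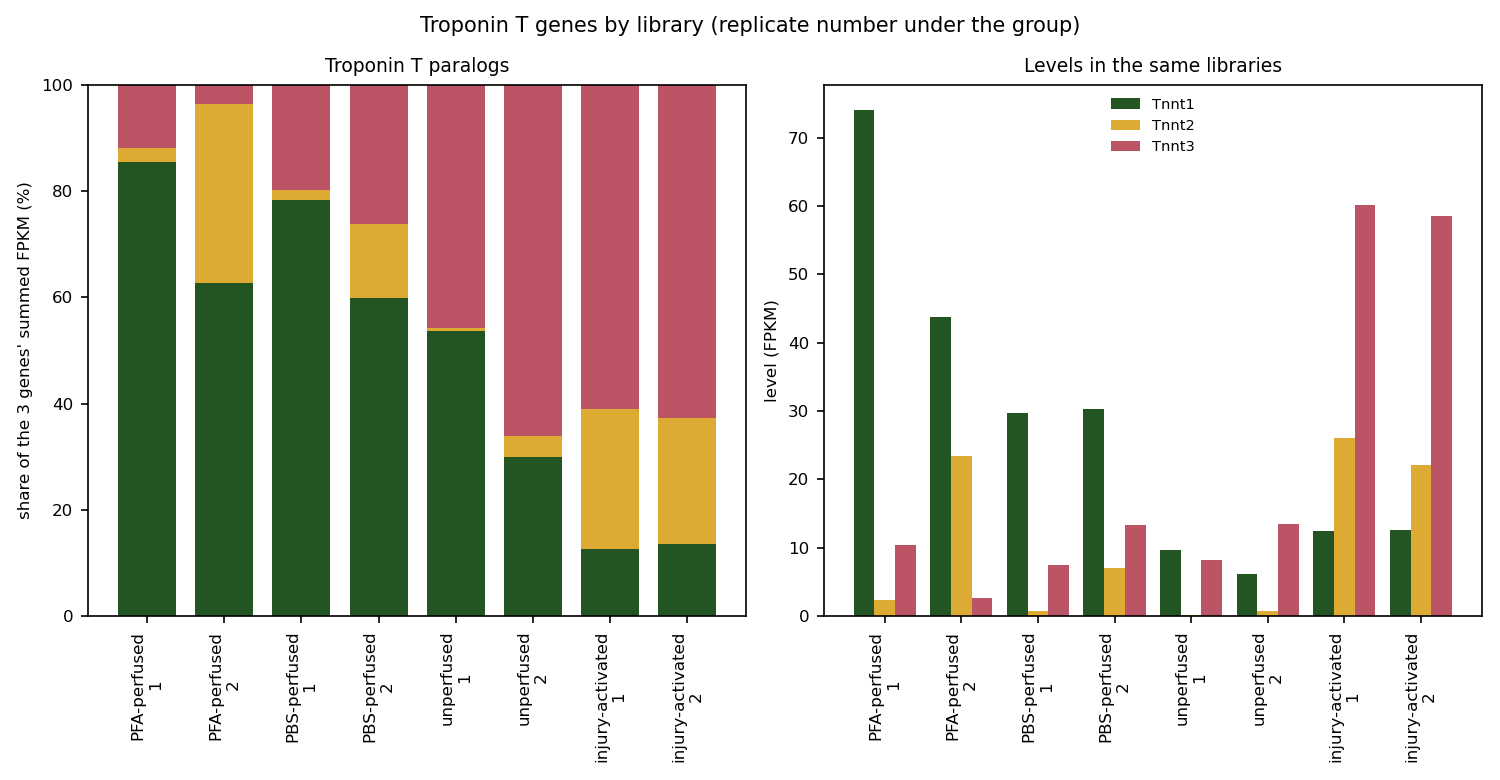
Left, share in percent of Tnnt1, Tnnt2 and Tnnt3 in their summed FPKM in each library; right, their levels in FPKM in the same libraries, with single libraries as bars. Tnnt1 falls from 85.4% in 1 PFA-perfused library to 12.7% and 13.6% in the injury-activated libraries, where Tnnt3 makes up 61.0% and 62.8%.

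The groups of perfused mice were less uniform than the other groups for these genes. In PFA-perfused cells 11 members differed by more than 1 on the log2 scale between the libraries, 7 of them higher in replicate 2 and 4 higher in replicate 1. In PBS-perfused cells 7 members were higher in replicate 2 by that much, and 1 member, Tnnc2, differed so in unperfused cells. Actc1, Tnnt2, Tnni1, Tmem8c and Chrng were higher by more than 1 in replicate 2 of both perfused groups, which makes 5 shared members. The share of all tested genes that differ by as much was not counted, so the members cannot be called unusual in this. By whole-table correlation between replicates, PFA-perfused cells (0.979) were close to unperfused cells (0.981). The value was 0.972 with PBS perfusion and 0.997 after injury. Actc1 had 1.73 and 23.9 FPKM with PFA and 0.378 and 2.94 FPKM with PBS perfusion. Tnni1 had 0.14 and 6.31 FPKM with PFA and 0.154 and 1.35 FPKM with PBS. For Ttn the values were 2.23 and 20.7 FPKM with PFA and 2.60 and 3.79 FPKM with PBS.

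Myog differed in the same direction as these 5 genes. Myog stood at 15.8 and 61.0 FPKM in PFA-perfused, 0.595 and 7.53 in PBS-perfused, 3.62 and 2.43 in unperfused and 76.9 and 67.2 in injury-activated libraries. Its part in the members' spread was not tested. Ckm, Tnnc2, Tnnt3 and Pygm went the other way in PFA-perfused cells, with 5.21 and 0.71 FPKM for Ckm and 32.4 and 15.6 FPKM for Pygm. Heart cells are marked by Myh6, Myl7 and Nkx2-5, which were at most 0.0778 FPKM in any library. Another heart gene, cardiac troponin I (Tnni3), was highest in the PFA-perfused libraries, at 1.64 and 1.81 FPKM, against 0.511 and 0.537 FPKM with PBS perfusion, 0.456 and 0.412 FPKM in unperfused and 0.154 and 0.0754 FPKM in injury-activated cells. Unlike Actc1 and Tnnt2 it was at a similar level in both PFA-perfused libraries. The part of heart cells in the level of Actc1 and Tnnt2 was not tested.

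**Figure D5:**
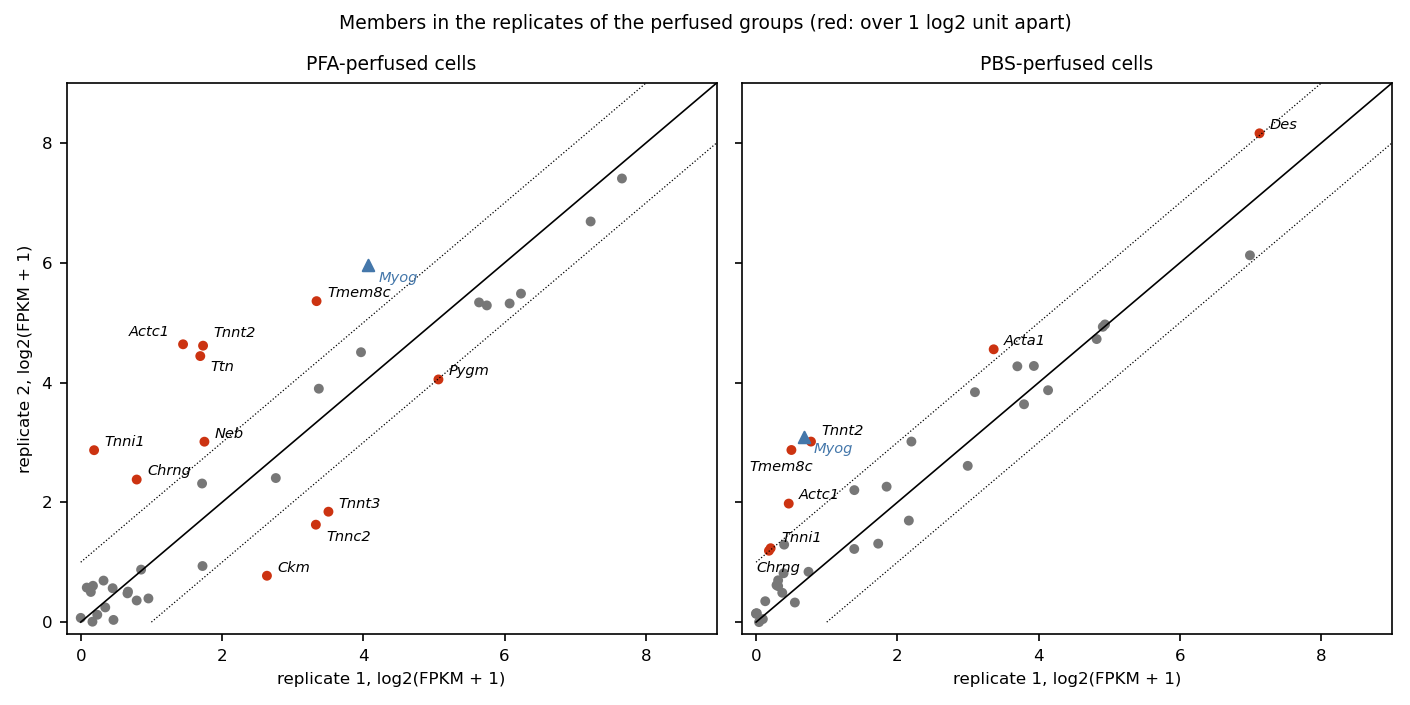
Members in replicate 2 against replicate 1, log2(FPKM + 1), in PFA-perfused (left) and PBS-perfused cells (right), with the line of equality and dotted lines 1 unit away. Red points are members more than 1 unit apart, 11 on the left and 7 on the right, and the triangle marks Myog, which lies on the same side as Actc1, Tnnt2 and Tmem8c in both.

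PBS-perfused against PFA-perfused cells set unfixed beside fixed cells of the same genotype, whose RNA was also extracted with different kits. Of the 28 tested members 1 rose and 6 fell, beside 17.8% and 46.2% of all tested genes. The median difference of the members was -0.24, and that of all tested genes -0.50. After trimmed mean scaling, which brought the median of all genes to -0.02, 4 members rose and 2 fell, beside 28.1% and 26.4% of all genes. Casq2 rose from 0.731 and 0.284 to 3.48 and 2.24 FPKM, by 1.35 ± 0.24 (adjusted p = 0.001029). Atp2a1 fell from 52.7 and 38 to 16.5 and 13.6 FPKM, by 1.52 ± 0.23 (adjusted p = 0.000465). These 2 members of the calcium store moved in opposite directions, and both kept their call under every alternative in which they were tested. Rabep2, which overlaps Atp2a1, fell by 1.37 in the same comparison. Fibre genes outside the sarcomere moved along with these falls, with 5 of 6 tested lower (2 after scaling) and a summed level of 182 to 213 FPKM against 430 to 497 FPKM in fixed cells, and their part in the members' changes was not tested. Their defining members Mb and Pvalb were at most 0.84 and 0.865 FPKM in any library.

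The other 5 falls were less firm. Tmem8c had 9.11 and 40.0 FPKM in PFA-perfused and 0.414 and 6.33 in PBS-perfused libraries, a fall of 2.66 ± 0.76 (adjusted p = 0.01319). It was no longer called without PFA-perfused replicate 2 (-1.65) or PBS-perfused replicate 1 (-1.47). Chrna1 fell by 0.92 from 66.2 and 38.9 to 27.2 and 25.4 FPKM, and Tnnt1 by 0.90. Both genes lost the call after scaling (-0.32 and -0.30), without PFA-perfused replicate 1 (-0.55 and -0.53) and without either PBS-perfused library, where the differences (-0.97 and -0.87 for Chrna1, -0.89 and -0.92 for Tnnt1) stayed close to those with all libraries. Tpm1, at 48.8 and 39.4 against 29.0 and 29.5 FPKM, fell by 0.57, and after scaling its difference was 0.03. Leaving out any library of the 4, or either injury-activated library, ended the call of Tpm1, with values from -0.42 to -0.72. Neb fell by 1.08, but by 0.45 and without a call when PFA-perfused replicate 2 was left out, and neither was it called without a PBS-perfused library (-1.16 and -0.99). It fell by 1.71 without PFA-perfused replicate 1.

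Desmin and fast alpha-actinin were abundant in both perfused groups. Des had 201 and 169 FPKM in PFA-perfused and 139 and 285 FPKM in PBS-perfused libraries, and the groups overlapped (0.11 ± 0.33, adjusted p = 0.7895). Actn3 had 148 and 102 FPKM and 126 and 68.7 FPKM, which overlapped as well (-0.40 ± 0.31, adjusted p = 0.2836). In injury-activated cells Actn3 was at 32.3 and 32.2 FPKM, below every library of the perfused groups.

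Other abundant members overlapped or differed without a call between the perfused groups. Acta1 had 9.34 and 13.9 FPKM in PFA-perfused and 9.29 and 22.5 FPKM in PBS-perfused libraries, Tpm2 14.6 and 21.7 against 12 and 18.3 FPKM, and Pygm 32.4 and 15.6 against 14.3 and 18.4 FPKM. Each of these pairs of groups overlapped. Myl1 had 2.29 and 3.97 against 1.62 and 3.61 FPKM, Tnni2 0.59 and 0.423 against 0.222 and 0.533 FPKM, and Chrng 0.731 and 4.21 against 0.135 and 1.28 FPKM. Tnnc2, at 9.04 and 2.09 against 12.9 and 11.4 FPKM, did not overlap, and its difference of 1.24 did not pass (adjusted p = 0.05824). It passed after scaling (1.69) and without PFA-perfused replicate 1 (2.09), and was 0.39 without replicate 2.

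Against the same PFA-perfused libraries, no member rose in unperfused cells and 12 fell (limma), beside 17.4% and 56.3% of all genes; at an unadjusted p under 0.05 the rises also numbered 0. The median difference of the members equalled that of all genes, at -0.81. After scaling 4 members rose (Tnnt3 by 1.85, Pygm by 1.25, Tpm1 by 0.71 and Myl4 by 0.60) and 7 fell, beside 35.3% and 32.6% of all genes. Tnnt1 fell most firmly, by 2.74 ± 0.29 (adjusted p = 2.849e-05), and by 1.63 after scaling. Actn3 fell by 2.30 ± 0.31 (adjusted p = 0.0001211), Tpm2 by 1.82 ± 0.27 from 14.6 and 21.7 to 5.0 and 3.72 FPKM (adjusted p = 0.0002352), and Tmem8c by 3.37 ± 0.76 (adjusted p = 0.00298). Tcap went from 2.30 and 0.913 to 0.117 and 0.0971 FPKM and fell by 1.18 ± 0.25 (adjusted p = 0.00182). These 4 genes and Tnnt1 kept their call under every alternative in which they were tested.

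Actc1 fell by 2.72 ± 0.86 (adjusted p = 0.01682) and Tnnt2 by 2.66 ± 0.89 (adjusted p = 0.02281), and the size of both falls depended on the PFA-perfused libraries. For both genes the higher of these libraries was PFA-perfused replicate 2. Without that library Actc1 differed by -1.13 and Tnnt2 by -1.22, and neither was called. Without PFA-perfused replicate 1 they fell by 4.31 and 4.10. Leaving out unperfused replicate 1 or 2 also ended both calls, at -2.59 and -2.85 for Actc1 and at -2.31 and -3.01 for Tnnt2. Chrna1 fell by 1.08, but the difference was 0.06 after scaling, and it was not called without PFA-perfused replicate 1 (-0.70) or unperfused replicate 2 (-0.67). Neb fell by 1.29 and was not called without PFA-perfused replicate 2 (-0.66) or unperfused replicate 2 (-0.90). The remaining falls were those of Myl1 (-1.49), Tnni2 (-0.47) and Atp2a1 (-1.57). After scaling Tnnt2, Neb, Chrna1, Tnni2 and Atp2a1 were no longer called. All 6 tested fibre genes outside the sarcomere were lower in unperfused than in PFA-perfused cells (4 after scaling), and their part was not tested. The call of Tnni2 also ended without PFA-perfused replicate 1 (-0.39) or either unperfused library (-0.48 and -0.46).

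Unperfused against PBS-perfused cells, both unfixed but of different genotype, differed in fewer members than unperfused against PFA-perfused cells. Perfusion and genotype cannot be told apart in this comparison. No member rose (limma, and 0 at an unadjusted p under 0.05), and 7 fell, beside 13.1% and 36.5% of all genes. The 7 were Tnnt1 (by 1.83 ± 0.29, adjusted p = 0.0007664), Tpm2 (-1.57), Actn3 (-1.91), Tcap (-1.37), Casq2 (-1.82), Tnnc2 (-2.07) and Myl1 (-1.27). All 7 were also called after scaling, when 2 rises, of Tpm1 (0.68) and Pygm (1.13), were added, beside 24.2% of all genes higher and 22.9% lower. Tcap went from 2.31 and 1.48 FPKM to 0.117 and 0.0971 FPKM, and Casq2 from 3.48 and 2.24 to 0.02 and 0.133 FPKM. Without unperfused replicate 2 the calls of Myl1 (-1.14) and Tnnc2 (-1.53) ended. With PBS-perfused replicate 1 left out, 11 members fell. Of the fibre genes outside the sarcomere 4 of 6 tested were lower as well (0 after scaling), with sums of 108 to 205 against 182 to 213 FPKM. Mural markers were lower in 7 of 12 and higher in 1 (5 and 1 after scaling), and endothelial markers lower in 10 of 12 (10 after scaling). The part of these cells in the members' falls was not tested.

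Injury-activated against PFA-perfused cells gave 17 rises and 6 falls, beside 26.1% and 47.3% of all genes, and 20 rises and 5 falls after scaling, beside 42.5% and 31.1%. Since this comparison shares its injury-activated libraries with the first, it is no second test of the rises. Tpm1 rose by 2.97, Acta1 by 3.18, Chrna1 by 3.01 and Chrng by 4.69 ± 0.52 (adjusted p = 3.638e-05). The members already present in PFA-perfused replicate 2 depended on that group's libraries. Ttn rose by 2.47, or by 1.09 without PFA-perfused replicate 1 and by 3.84 without replicate 2. Tnni1 rose by 2.95, or by 1.61 without PFA-perfused replicate 1, and Tmem8c by 2.72, but only by 1.70 and without a call when that library was left out. Actc1 differed by -0.84 ± 0.86 (adjusted p = 0.3955), with 1 PFA-perfused library above and 1 below both injury-activated libraries.

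The 6 falls from PFA-perfused to injury-activated cells were those of Tnnt1 (-2.09), Actn3 (-1.90), Des (-2.17), Pygm (-2.85), Atp2a1 (-0.80) and Tcap, which is listed at 0 after injury. All but Atp2a1 kept their call under every alternative in which they were tested. Atp2a1 differed by 0.13 after scaling, and it was not called without PFA-perfused replicate 1 (-0.57) or either injury-activated library (-0.81 and -0.79). Des, Pygm and Tcap were thus low after injury beside both the unperfused and the fixed cells, although for Tcap against unperfused cells the difference did not pass.

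Related genes outside the list were followed in the comparison of injury-activated with unperfused cells. Of 35 tested genes of the sarcomere and triad, 17 rose and 10 fell, beside 40.8% and 29.3% of all genes. Murc, a caveolar protein of muscle, rose by 5.0 to a mean of 34.3 FPKM, Cacng1, a subunit of the calcium channel of the triad, by 4.51 to 43.2 FPKM, and Srl, the reticulum protein sarcalumenin, by 4.43. Filamin C, Flnc, a Z-disc protein that binds actin, fell by 3.68. Of 33 tested fusion genes 7 rose and 12 fell, beside the same shares of all genes. Myof (myoferlin, a membrane repair and fusion protein) rose by 5.40, Cdh2 (N-cadherin) by 4.50 and Gm7325, the small peptide myomixer that acts with myomaker, by 3.26 to 10.6 and 7.58 FPKM. Arhgef1, an activator of the small GTPase RhoA, fell by 2.96.

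Among 9 tested genes of the acetylcholine receptor and synapse, 3 rose and 4 fell, beside 40.8% and 29.3% of all tested genes. The delta subunit Chrnd rose by 5.42 to 105 and 97.0 FPKM, beside the alpha and gamma subunits, whereas Musk, the receptor kinase that organises the synapse, fell by 4.50. The adult epsilon subunit Chrne was at most 0.0863 FPKM in any library. Of 15 tested myogenic regulators 5 rose and 6 fell, beside the same shares. Myog rose by 4.20 ± 0.75 (adjusted p = 0.0008344), while Myf5 fell by 4.45 and Myod1 fell by 2.87. In PBS-perfused against PFA-perfused cells the sarcomere and triad list gave 8 rises and 15 falls, the fusion list 7 and 11, the receptor list 1 and 4, and the regulators 4 and 7, beside 17.8% and 46.2% of all genes. There the tropomyosin Tpm3 rose by 2.24 and Flnc by 2.09, while Cacng1 fell by 2.14, Myog fell by 3.13 and Pax7 fell by 2.78. Myod1 rose by 2.31.

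Markers were read in the same libraries to see which other cells their RNA could hold. The satellite cell factor Pax7 was at 328 and 567 FPKM in PFA-perfused, 48.3 and 79.6 in PBS-perfused, 19.8 and 20.4 in unperfused and 4.59 and 4.40 FPKM in injury-activated libraries, so it was present in all of them. Of 10 satellite cell markers 1 rose and 7 fell after injury, beside 40.8% and 29.3% of all tested genes. That marker list takes in the member Des, whose fall is thus counted in both lists. Of 15 fibre genes outside the sarcomere only 6 were tested, and after injury 3 of them rose and 2 fell, beside the same shares. In injury-activated libraries myoglobin, Mb, was at most 0.0997 FPKM and parvalbumin, Pvalb, at most 0.0147 FPKM, so these defining products of mature fibres were near 0. The summed fibre list was 3267 to 3335 FPKM there and 108 to 205 FPKM in unperfused libraries, almost wholly through Eno3 (1443 and 1452 FPKM after injury), the muscle enolase, and Slc25a4, the mitochondrial ADP carrier.

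Blood cell markers were also higher after injury, with 7 of 8 tested up and 1 down, beside 40.8% and 29.3% of all tested genes. Their sum was 66.6 to 75.2 FPKM against 26.8 to 38 FPKM, with Lyz2 at 42.9 and 44.0 FPKM, while Ptprc, which encodes CD45, was at most 0.25 FPKM. The mural and smooth muscle list, whose cells share desmin, summed to 609 to 743 FPKM in PFA-perfused, 278 to 354 in PBS-perfused, 156 to 192 in unperfused and 61.5 to 72.0 in injury-activated libraries. After injury 1 of its 12 tested genes rose and 6 fell, beside the same shares of all genes. Des was highest in the perfused groups and lowest after injury, as this list was, and the part of such cells in the level of Des was not tested. Endothelial markers summed to 65.2 to 70.8 FPKM in PFA-perfused, 163 to 259 in PBS-perfused, 33.8 to 48.2 in unperfused and 10.1 to 10.5 in injury-activated libraries. Of these markers 11 of 12 were called higher in PBS-perfused than in PFA-perfused cells, beside 17.8% of all tested genes. In the same order of groups the summed ranges were 743 to 1239, 676 to 747, 899 to 1128 and 119 to 145 FPKM for fibro-adipogenic cells, 932 to 1064, 515 to 531, 140 to 163 and 81.1 to 113 FPKM for tenocytes, and 33.8 to 40.7, 27.8 to 32.2, 7.25 to 9.25 and 13.9 to 14.1 FPKM for glial cells. The tenocyte list holds Chodl, which is also in the satellite cell list, so its sums are not a measure of tenocytes alone. After injury 5 of 11 tested fibro-adipogenic, 6 of 8 tenocyte and 3 of 6 glial markers were higher than in unperfused cells, and 4, 2 and 2 were lower. Of 12 tested endothelial markers 0 were higher and 3 lower there. Among all tested genes 40.8% were higher and 29.3% lower, so the fibro-adipogenic (45.5% higher) and glial lists (50.0% higher) were not far from that share. The cardiac list includes the members Actc1, Tnnt2 and Myl4 and summed to 11.6 and 55.1 FPKM in the PFA-perfused libraries, and 2 of its 4 tested genes rose after injury and 1 fell. In sorted bulk cells, fewer cells of a type and less RNA per cell cannot be told apart, and the part of these cells in the members' changes was not tested.

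Over the whole table FPKM summed to 461454 to 582336 per library, and log2 levels correlated across genes between the libraries of a group at 0.979 in PFA-perfused, 0.972 in PBS-perfused, 0.981 in unperfused and 0.997 in injury-activated cells (genes are not independent replicates). The depth of each library is unknown, so no counting error can be given for low values such as those of the myosin heavy chains.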

How the data were processed

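The deposited data are a single table with a line for each gene symbol and a column for each of 8 libraries. Its header names no unit. The deposited values were taken as FPKM because they hold decimals, because their totals differ between libraries, and because StringTie can write this unit. The submitters' processing notes name STAR 2.5.3a, StringTie 1.3.3, R 3.4.1 and the build mm9. Settings and strandedness are not given in the sources used here. Low values gave no common step between libraries, so reads could not be recovered and no count test was run.

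Values were analysed as log2(FPKM + 1), so fold changes of low genes are understated. Genes of at least 1 FPKM in 2 libraries were fitted together in limma 3.58.1 (R 4.3.3) with a variance trend over all 8 libraries, in 5 contrasts. A gene was called where its two-sided p, adjusted by Benjamini-Hochberg over all 12515 genes, was under 0.05. Scaling used the trimmed mean of ratios (trims 0.3 and 0.05).

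All members were named by role. Single library values were given for called members with a group mean of at least 10 FPKM and for some chosen genes, and up to 3 called genes were named per related list, namely sarcomere and triad, fusion, receptor and synapse, and regulators. The members, lists and tests were chosen with earlier results of these data known. Ube2c, Adora1 and Rabep2 were named for their overlap with members. Tpm3, Flnc, Arhgef1 and Tnni3 were added after their values were seen. Exons came from GENCODE M21 and promoters from RefSeq, both on GRCm38, another build than that of the values, and symbols were used to match them.

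The alternatives were a replicate block, only the 2 groups compared, no filter, a filter of 5 FPKM, a pseudocount of 0.1, trimmed mean scaling, quantile normalization, a log2 change of at least 1, and each library left out. A block together with scaling was added after seeing the data.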

Additional observations from a re-analysis of the deposited data

How the results depend on the processing

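Counts of called members are given here as rises and falls among 28 tested, and the cause of each difference was not tested. For PBS-perfused against PFA-perfused cells the 1 rise became 2 with the replicate block, 4 with trimmed mean scaling, 6 with quantile normalization and 5 with block and scaling together. The 6 falls became 2 without a filter, 2 with scaling, 2 with block and scaling, and 3 when a log2 change of at least 1 was required. For unperfused against PFA-perfused cells the 0 rises became 4 with scaling, 2 with quantile normalization and 3 with block and scaling, and the 12 falls became 7 with scaling and 7 with quantile normalization. For unperfused against PBS-perfused cells the 0 rises became 2 with scaling and 2 with block and scaling. With each library left out in turn, the ranges of rises and falls were 1 to 5 and 2 to 8 for PBS-perfused against PFA-perfused, 0 to 1 and 8 to 13 for unperfused against PFA-perfused, 0 to 0 and 5 to 11 for unperfused against PBS-perfused, 14 to 23 and 2 to 2 for injury-activated against unperfused, and 12 to 19 and 5 to 6 for injury-activated against PFA-perfused cells. A group left with 1 library took its spread from the others in the fit, which is an assumption. The lowest of these counts, 14 rises after injury, came without an injury-activated library, when members at low level before injury no longer passed the filter. Signs reversed for Tpm1 in PBS-perfused against PFA-perfused cells (0.0259 with scaling, with and without the block), and in unperfused against PFA-perfused cells for Myl4 (0.60 with scaling, 0.73 with quantile normalization), Tpm1 (0.71 with scaling, with and without the block) and Chrna1 (0.0597, likewise). Atp2a1 reversed in injury-activated against PFA-perfused cells (0.13, likewise). Of 2272 member values under an alternative, 2093 stayed called or uncalled (92 of them changed sign and were called in neither), 85 lost a call, 84 gained one and 10 reversed. The labels do not say that replicate numbers pair the samples. Deviations of same-numbered libraries correlated between groups at -0.05 to 0.12, highest between the PFA- and PBS-perfused groups, and only that pair was above 0.1, so the numbers were not taken as pairs; a day shared by those 2 groups was not tested. The replicate block added 5 member calls and removed none.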
